A study of Homo sapiens with 4 samples.

Results

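The imprinted domain on the long arm of chromosome 15 (15q11) was followed in HCT116, a human colorectal carcinoma cell line in long use, after exposure to 5-aza-2'-deoxycytidine (5-aza-dC). The members were the probe sets of an Affymetrix expression array whose annotated names all belonged to the domain: MKRN3, MAGEL2, NDN, SNRPN, SNURF, UBE3A, the small nucleolar RNAs SNORD64, SNORD107, SNORD108 and SNORD109, and the numbered copies of SNORD115 and SNORD116. The rule found 69 of the 33297 probe sets: 1 each for MKRN3, MAGEL2, NDN and UBE3A, 2 for SNORD109, 34 for SNORD115 and 29 for SNORD116. Total RNA was compared between 2 arrays of vehicle-treated cells and 2 arrays of cells given 1 µM 5-aza-dC, all of the same line, with no other agent or engineered allele named in the labels and the vehicle left unnamed. The drug was first added 24 hours after seeding and again 48 hours after that first dose, and RNA was taken at 72 hours after the first dose. The labels do not say whether the 2 arrays of a group came from separate cultures, so the spread behind the p-values may be technical only. A single line was used, and RNA from other colon cells was not analysed here.

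The domain is a textbook case of parent-of-origin expression. MKRN3, MAGEL2, NDN and SNURF-SNRPN are transcribed from the paternal chromosome, and the maternal copy is kept silent in connection with DNA methylation at the imprinting centre around the SNURF-SNRPN start. A very long noncoding transcript that begins there carries SNORD64, SNORD107, SNORD108, SNORD109 and the tandem arrays of SNORD116 and SNORD115 in its introns, and its far end runs antisense to UBE3A, which is silenced on the paternal chromosome in neurons. Loss of the paternal genes is linked to Prader-Willi syndrome and loss of maternal UBE3A to Angelman syndrome. 5-aza-dC, or decitabine, is built into replicating DNA, traps DNA methyltransferases and lowers CpG methylation. Methylation itself was not measured here, and arrays do not separate the 2 parental alleles.

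Start-site windows are shown for NDN and MKRN3, whose treated means lay above and below vehicle, and for SNURF, whose start lies at the imprinting centre and heads the transcript that hosts the snoRNAs. Each window runs from 250 bases before to 50 bases after the annotated start, read 5′ to 3′ on the gene's strand from RefSeq (GRCh38.p14), with every CpG in capitals.

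MKRN3, chr15:23565424-23565723, plus strand: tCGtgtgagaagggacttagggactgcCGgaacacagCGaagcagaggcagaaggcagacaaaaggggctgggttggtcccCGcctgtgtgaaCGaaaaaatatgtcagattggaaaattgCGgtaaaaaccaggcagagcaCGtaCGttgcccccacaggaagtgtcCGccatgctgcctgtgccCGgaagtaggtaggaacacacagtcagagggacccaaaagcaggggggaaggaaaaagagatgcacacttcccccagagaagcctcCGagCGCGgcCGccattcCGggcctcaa

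NDN, chr15:23687256-23687555, minus strand: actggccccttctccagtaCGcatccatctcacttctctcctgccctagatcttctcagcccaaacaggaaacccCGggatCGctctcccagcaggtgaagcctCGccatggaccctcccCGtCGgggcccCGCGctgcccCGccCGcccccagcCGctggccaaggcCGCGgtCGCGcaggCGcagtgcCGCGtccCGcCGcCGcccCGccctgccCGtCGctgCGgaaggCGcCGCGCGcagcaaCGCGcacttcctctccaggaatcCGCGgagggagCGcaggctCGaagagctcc

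SNURF and SNRPN, chr15:24954737-24955036, plus strand: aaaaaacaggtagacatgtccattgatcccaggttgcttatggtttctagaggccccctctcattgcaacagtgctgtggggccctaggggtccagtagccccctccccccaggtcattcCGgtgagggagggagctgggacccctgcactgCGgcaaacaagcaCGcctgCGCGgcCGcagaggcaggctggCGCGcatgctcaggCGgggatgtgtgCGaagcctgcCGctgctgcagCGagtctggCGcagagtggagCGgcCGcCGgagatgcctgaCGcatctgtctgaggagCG

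The NDN window held 35 CpGs, a number reached by 14.1% of the 34943 RefSeq windows of the same length, whose median was 14. SNURF had 18 CpGs and MKRN3 had 15, numbers reached by 44.3% and 48.8% of windows. The motif counted was the dinucleotide CG, which reads the same on both strands. The MAGEL2 window held 9, and the 3 UBE3A windows held between 38 and 44. Besides the window shared with SNURF, SNRPN had other windows with 7, 2 and 11 CpGs. Windows were matched by symbol for MKRN3, MAGEL2, NDN, SNURF, SNRPN and UBE3A. The counts describe the sequence and say nothing of its methylation in these cells.

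After treatment, 4 readouts of SNORD116 copies rose, by 1.74- to 2.17-fold, while the probe set of their host gene SNURF-SNRPN had a mean of 4.12 in both groups and 0 SNORD115 probe sets passed the test. By mean level, the host probe set and the rises other than SNORD116-15 lay in the dimmest 33.3% of the table. Levels are log2 RMA values, the authors' background-corrected and quantile-normalized signal, on which 1 unit is a doubling and on which different probe sets cannot be ranked as amounts of RNA. In limma's moderated test over all 33297 probe sets, with a rise or fall called at a Benjamini-Hochberg adjusted p under 0.05, 5 of the 69 members rose (7.25%) against 6.02% of all probe sets, and 0 fell against 6.36%. The share of rises was thus near the background of the whole table. Without adjustment, limma's p was under 0.05 for 6 higher (8.7%) and 3 lower members (4.35%), against 11.3% and 17.7% of all probe sets. The median member changed by -0.07 on the log2 scale and the median probe set of the table by -0.09. Since 2 arrays a group allow an exact permutation p of 0.333 at best, the calls draw on the variance that limma shares across probe sets.

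Of the 69 probe sets, 48 named 1 gene or copy and 21 named several, up to 19 on 1 probe set. On the 4 arrays 13 of them fell into 6 sets with exactly equal values (tolerance 0), leaving 62 separate readouts, so the 5 rises were 4 readouts. Above the dimmest 33.3% of the table lay 5 members: MKRN3, NDN, UBE3A, SNORD116-2 and SNORD116-15.

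SNORD116 is a box C/D small nucleolar RNA, of the class that guides ribose methylation of other RNAs, although no target of SNORD116 is firmly established; loss of its array is enough for main features of Prader-Willi syndrome. SNORD116-20 read 3.38 and 3.30 on the vehicle arrays and 4.21 and 4.27 on the treated arrays. Both treated arrays lay clearly above both vehicle arrays, with a mean level at percentile 24.3 of the table. The change was 1.87-fold (log2 fold change 0.90, SE 0.11, limma adjusted p = 0.0125).

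SNORD116-15 read 4.17 and 4.61 in vehicle and 5.28 and 5.73 in treated cells. The groups did not overlap, but the arrays of each group differed more from each other than those of SNORD116-20. The change was 2.17-fold, with a 95% interval of 1.43 to 3.27 (log2 fold change 1.11, SE 0.23, limma adjusted p = 0.0446).

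SNORD116-14 read 2.11 and 1.92 in vehicle and 2.95 and 2.68 in treated cells. This was a rise from the lowest part of the scale to a level that was still low. The change was 1.74-fold (log2 fold change 0.80, SE 0.15, limma adjusted p = 0.0358).

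A pair of probe sets with equal values named copies 14 to 22 jointly, together with SNRPN. They read 2.67 and 2.84 in vehicle and 3.70 and 3.63 in treated cells, again without overlap. The change was 1.87-fold (log2 fold change 0.91, SE 0.12, limma adjusted p = 0.0160). The 3 single-copy readouts that rose, 14, 15 and 20, are all among the names of this joint probe set, and whether the 4 readouts share probes was not checked.

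**Figure D1:**
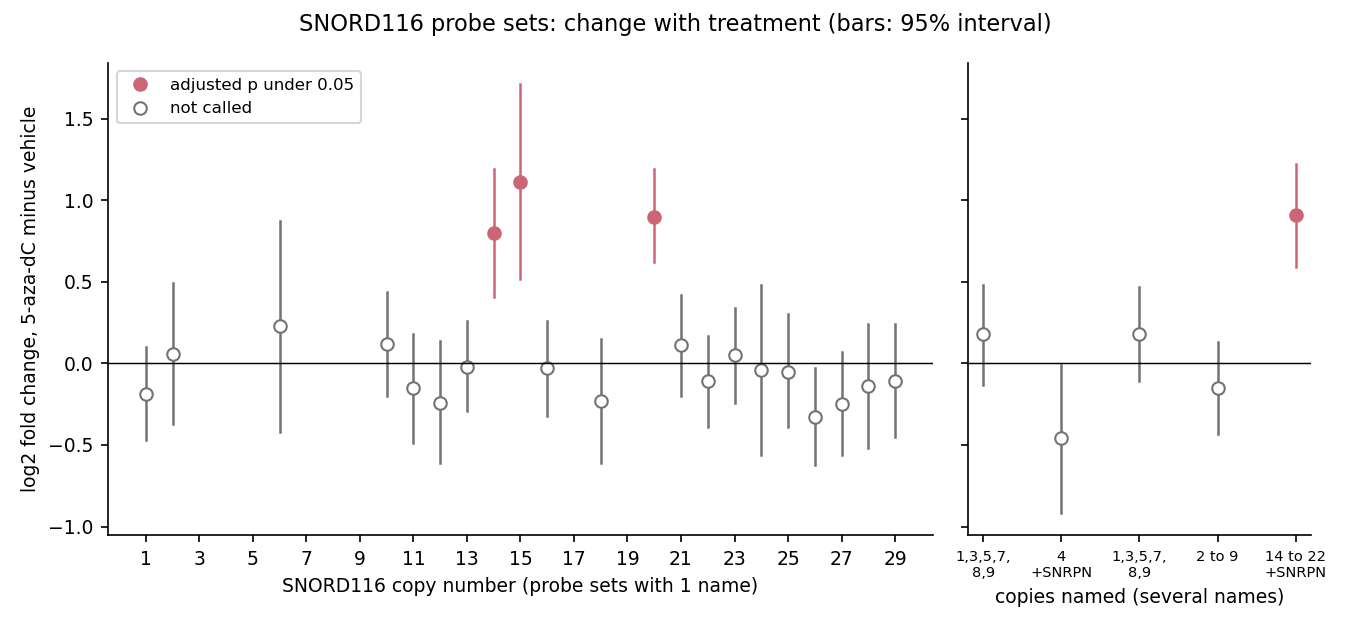
Log2 fold change (treated minus vehicle, n = 2 arrays each) of SNORD116 probe sets, by copy number for probe sets with 1 name at left and by the copies named for those with several at right, with equal readouts drawn once. Points are limma estimates and bars their 95% intervals; filled points, at copies 14, 15, 20 and the joint set 14 to 22, passed an adjusted p under 0.05, while open points lay between -0.46 and 0.23.

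Neighbouring copies did not all read alike. Among the 21 copies read singly, 3 rose (14.3%), against 6.02% of all probe sets. Copies 16, 18, 21 and 22 are also among the names of the joint probe set, and their own probe sets had log2 fold changes of -0.03, -0.23, 0.11 and -0.11, with adjusted p between 0.373 and 0.881. SNORD116-16 read 1.84 and 1.73 in vehicle and 1.74 and 1.76 in treated cells, the lowest mean level of the family.

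Copies numbered 1 to 13 had 7 probe sets of their own. Of these 7, limma called 0 in either direction, against 4124 of all 33297 probe sets. It gave 0 of them a raw p under 0.05, against 9663 of all 33297. The range 1 to 13 and the last range, described below, were set on either side of the called copies after the values were seen. Their lack of rises thus follows from that choice and is no separate finding about position in the array. SNORD116-2 had the highest mean level of the family, and its arrays read 5.87 and 6.24 in vehicle against 6.05 and 6.19 in treated cells. Its groups overlapped, and the 95% interval of its log2 fold change ran from -0.37 to 0.49. The 4 probe sets that name copies 1, 3, 5, 7, 8 and 9 together formed 2 readouts, each with a log2 fold change of 0.18 (adjusted p of 0.363 and 0.392). SNORD116-6 read 2.47 and 2.94 in vehicle and 2.68 and 3.20 in treated cells, a spread within each group that exceeded the difference between them.

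Copies numbered 23 to 29 had 7 probe sets. Of these 7, limma called 0, against 4124 of all 33297 probe sets. It gave 1 of them (14.3%) a raw p under 0.05, against 9663 of all 33297. That probe set was SNORD116-26, which read 2.51 and 2.42 in vehicle and 2.09 and 2.19 in treated cells (log2 fold change -0.33, SE 0.11, adjusted p = 0.142). The probe set that names SNORD116-4 and SNRPN read 3.60 and 4.02 in vehicle and 3.41 and 3.28 in treated cells (log2 fold change -0.46, SE 0.18, adjusted p = 0.169). Both had lower treated arrays without overlap, and neither passed the test. Over all 29 probe sets of the family the median log2 fold change was -0.02, and with equal readouts counted once it was -0.04 over 26. Of those 26, 6 were higher and 9 lower without overlap between groups (23.1% and 34.6%), near the 20.7% higher and 38.5% lower over all probe sets.

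The calls in SNORD116 depended on single arrays. With vehicle replicate 1, vehicle replicate 2 or treated replicate 2 left out, 0 members were called, and without treated replicate 1 there were 3 rises, of SNORD116-20 and the joint pair. Calls over the whole table dropped in the same fits, from 4124 to 894, 979, 1979 and 3546. The log2 fold change of SNORD116-20 ran from 0.79 to 0.98, and that of SNORD116-15 from 0.89 to 1.34, over the settings that can move it, which were other scalings and left-out arrays.

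**Figure D2:**
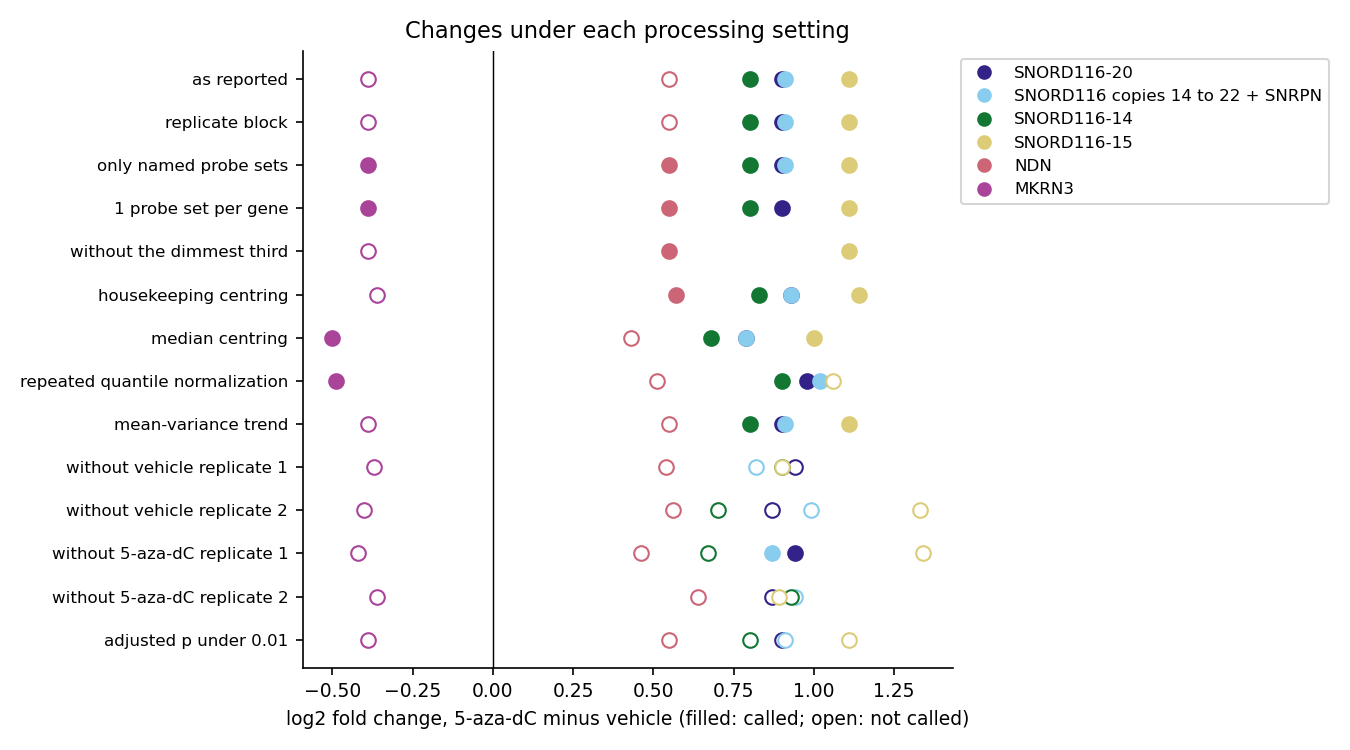
Log2 fold change (treated minus vehicle) of 4 SNORD116 readouts, NDN and MKRN3, as reported and under each alternative setting, 1 setting per line. Filled points passed the adjusted p threshold and open points did not; only the scalings and left-out arrays can move a point, no point crossed 0, and the SNORD116 calls vanished in 3 of the 4 fits that left out an array.

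SNORD115, the other tandem array, is a brain-enriched box C/D snoRNA with complementarity to the serotonin receptor transcript HTR2C. Its 34 probe sets had values of at most 2.72 on any array, and the mean levels of the 34 lay within the lowest 7.9% of the table. By limma 0 rose, 0 fell and 0 reached a raw p under 0.05, which 9663 of the 33297 probe sets reached. The 95% intervals of the log2 fold changes reached from -0.74 to 0.56, and the adjusted p-values from 0.207 to 0.997. The table holds no detection calls, so whether these probe sets measured SNORD115 at all was not determined.

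The SNORD115 probe sets leaned slightly lower in treated cells as deposited. Of the 34, 32 (94.1%) had a negative log2 fold change, against 63.4% of all probe sets, and 16 (47.1%) were lower and 0 higher without overlap between groups, against 38.5% and 20.7%. The median was -0.09, the same as the median of all probe sets, and it was 0.00 after repeated quantile normalization and -0.21 after centring arrays on their medians. That centring moved the median of the whole table by -0.12. SNORD115-25, with the highest mean level of the family, read 2.53 and 2.67 in vehicle and 2.49 and 2.66 in treated cells. SNORD115-10, with the lowest, had group means of 1.60 in vehicle and 1.57 in treated cells.

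**Figure D3:**
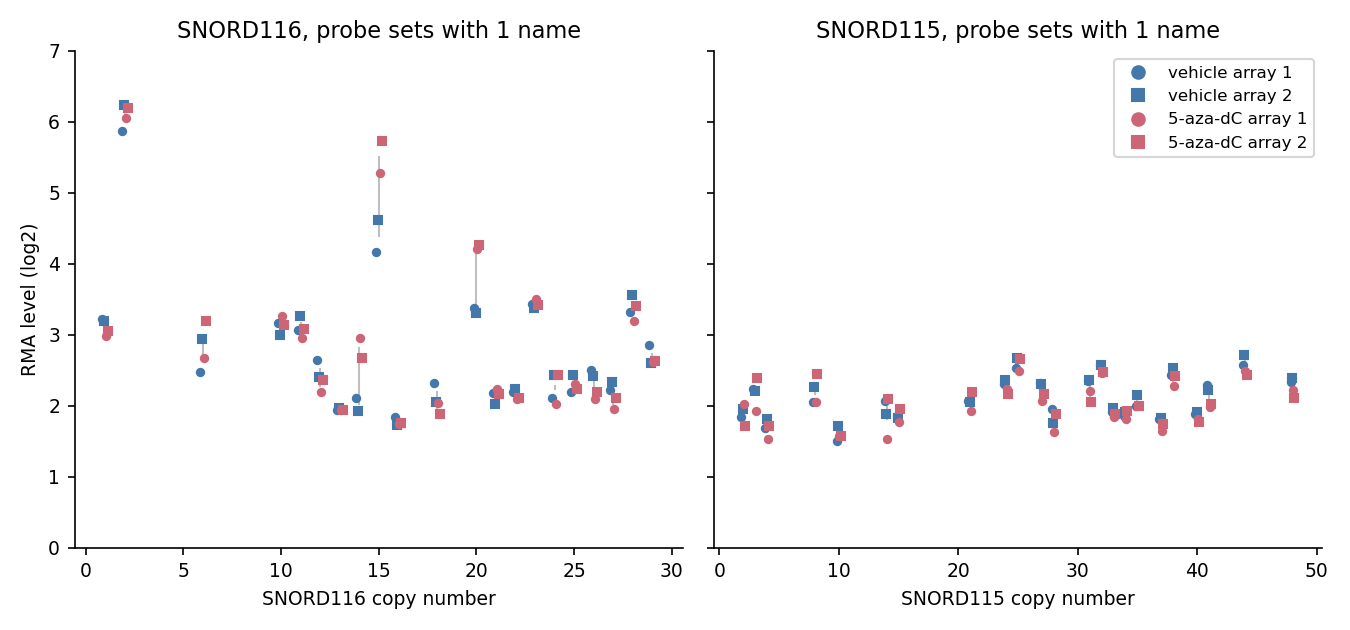
RMA level (log2) on each array of the SNORD116 (left) and SNORD115 (right) probe sets with 1 name, by copy number; colours mark treatment, marker shapes the array, and grey lines join the group means. Treated values stand above vehicle values for SNORD116 copies 14, 15 and 20, and SNORD115 values reach 2.72 at most; levels of different probe sets are not comparable as amounts.

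SNORD109A and SNORD109B, snoRNAs that flank the tandem arrays, were read by 2 probe sets with equal values, 2.43 and 2.45 in vehicle and 2.37 and 2.29 in treated cells (log2 fold change -0.11, SE 0.11, limma adjusted p = 0.553). These are low values with a difference no larger than its SE.

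SNURF-SNRPN encodes the SNURF peptide and SmN, an Sm core protein of spliceosomal particles prominent in neurons, and is the start of the snoRNA host transcript. Its main probe set also names SNORD107 and the noncoding PWARSN, and so fell outside the rule, but it is the readout of the host gene. It read 4.11 and 4.13 in vehicle and 4.09 and 4.14 in treated cells. The groups overlapped, the group means were equal to 2 decimals, and the 95% interval of the log2 fold change ran from -0.28 to 0.27 (limma adjusted p = 0.985). The mean level of this probe set lay at percentile 28.8 of the table. With no detection calls, whether it measured host RNA was not determined. SNORD64 and SNORD115-23 were read with PWAR5 and PWAR4, other transcripts of the host unit, and had log2 fold changes of -0.16 (adjusted p = 0.508) and -0.01 (adjusted p = 0.978). SNORD108 was not analysed here.

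The change of each probe set was compared with that of the SNURF-SNRPN probe set by subtracting the latter within each array and fitting limma to the differences over the other 33296 probe sets, a test added after the values were seen. The log2 fold change of SNORD116-20 exceeded that of the host readout by 0.91 (SE 0.11, adjusted p = 0.0125). The joint probe set differed from the host by 0.91 (adjusted p = 0.0171), SNORD116-15 by 1.12 (adjusted p = 0.0390) and SNORD116-14 by 0.80 (adjusted p = 0.0442), against a background of 5.95% of probe sets with a larger rise than the host. These 4 readouts were taken because they had been called, and the host readout hardly changed, so the differences nearly repeat the changes themselves and are no separate support for them. The difference from the host was 0.55 for NDN (adjusted p = 0.0630) and -0.38 for MKRN3 (adjusted p = 0.104). Without either vehicle array, none of these 4 SNORD116 readouts differed from the host at an adjusted p under 0.05; SNORD116-14 also missed it without treated replicate 1 (adjusted p = 0.0752) and SNORD116-15 without treated replicate 2 (adjusted p = 0.0969). With quantile normalization repeated on the table, SNORD116-15 missed it as well (adjusted p = 0.0519). Probes inside a snoRNA cannot tell the mature snoRNA from unspliced host RNA.

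NDN encodes necdin, a MAGE-family growth suppressor of postmitotic neurons. It read 4.45 and 4.48 in vehicle and 5.11 and 4.92 in treated cells. Both treated arrays stood above both vehicle arrays. The difference was 1.46-fold (95% interval 1.18 to 1.82, log2 fold change 0.55, SE 0.12) and missed the threshold over all probe sets (adjusted p = 0.0527). Over the 21236 named probe sets it passed (adjusted p = 0.0191), as it did over 17958 genes with 1 probe set each (adjusted p = 0.0169). Rises were called for 12.5% and 12.4% of features in those fits, and calls in either direction for 27.0% and 28.0%.

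MKRN3 encodes a makorin zinc finger ubiquitin ligase known for restraining the onset of puberty. It read 5.67 and 5.64 in vehicle and 5.30 and 5.24 in treated cells. The treated arrays were both lower, by more than the spread within either group. The level was 1.31-fold lower (log2 fold change -0.39, SE 0.11, 95% interval -0.67 to -0.11), with an adjusted p of 0.0887 over all probe sets, 0.0462 over named probe sets and 0.0441 over 1 probe set per gene, where falls were called for 14.4% and 15.6% of features. In the fit over named probe sets, 7 of the 69 members were called in either direction, against 27.0% of all features fitted.

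MAGEL2 encodes a MAGE protein that works with TRIM27 and USP7 in endosomal protein recycling. It read 3.46 and 3.36 in vehicle and 3.63 and 3.47 in treated cells. The treated arrays were both higher, but by less on average than they differed from each other. The log2 fold change was 0.14 (SE 0.12, 95% interval -0.18 to 0.46, adjusted p = 0.510).

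UBE3A encodes the ubiquitin ligase E6AP and is expressed from both parental copies outside neurons. It read 8.99 and 9.05 in vehicle and 9.25 and 9.05 in treated cells. The higher treated array stood alone, and the other equalled a vehicle array to 2 decimals. The log2 fold change was 0.13 (SE 0.12, 95% interval -0.19 to 0.46, adjusted p = 0.546).

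**Figure D4:**
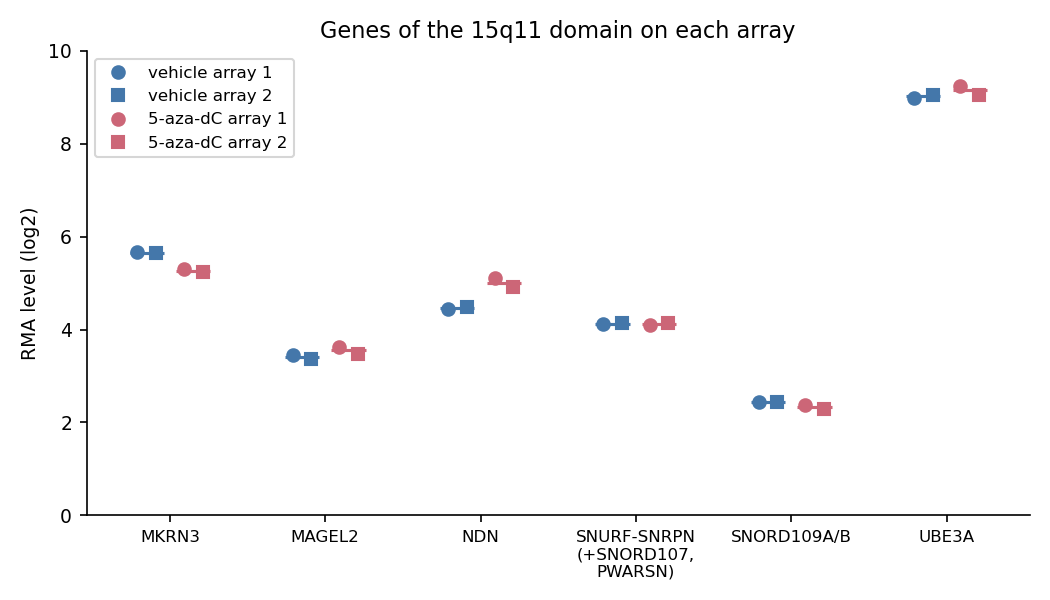
RMA level (log2) on each of the 4 arrays for the genes of the domain outside the tandem arrays, in chromosomal order of the main genes; short lines are group means of 2 arrays. NDN is higher and MKRN3 lower on both treated arrays, SNURF-SNRPN is level at 4.12, and levels of different genes are not comparable as amounts.

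Other transcripts of the domain and its neighbours were read from lists. Of 12 other noncoding and coding transcripts of the domain, 2 were read singly: PWAR6 (log2 fold change -0.12, adjusted p = 0.557) and NPAP1, a nuclear pore associated protein gene (0.07, adjusted p = 0.768). Of 16 genes tested in the flanks of the domain further along 15q, 1 rose and 0 fell, while raw limma p-values under 0.05 were found for 2 higher and 4 lower genes. The rise was of APBA2, a neuronal adaptor protein, which read 4.28 and 4.76 in vehicle and 6.63 and 6.79 in treated cells (4.54-fold, adjusted p = 0.00541). GABRA5, a GABA receptor subunit near UBE3A, had a log2 fold change of -0.32 (adjusted p = 0.139), TJP1, a tight junction protein, of 0.42 (adjusted p = 0.0776) and TUBGCP5, a gamma-tubulin complex protein, of -0.70 (adjusted p = 0.106).

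Among factors that maintain imprints or silence the domain, 1 of 11 rose and 1 fell (9.09% each, against 6.02% and 6.36% of all probe sets). ZFP57, the zinc finger protein that recognises methylated imprinting centres, read 3.58 and 4.08 in vehicle and 9.38 and 9.36 in treated cells, a rise of 46.5-fold (SE 0.19 on the log2 scale, adjusted p = 0.000479). UHRF1, which brings DNMT1 to replicated DNA, fell 1.49-fold (adjusted p = 0.0406). SETDB1, the histone H3 lysine methyltransferase recruited with ZFP57, had a log2 fold change of -0.45 (adjusted p = 0.0727) and ATRX, a chromatin remodeller, of -0.53 (adjusted p = 0.120). The list as a whole had a median log2 fold change of -0.26.

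Relatives and partners of the encoded proteins were mostly not called. Of 8 type II MAGE relatives of NDN and MAGEL2, 2 rose: TRO, or trophinin (3.95-fold, adjusted p = 0.0127), and MAGEH1 (1.80-fold, adjusted p = 0.0365). Of 7 makorin and HECT-ligase relatives, 1 fell (14.3%, against 6.36% of all probe sets): UBE3B (1.53-fold lower, adjusted p = 0.0356). None of 8 tested members of the MAGEL2 complex, 11 box C/D snoRNP proteins and assembly factors or 5 Sm core proteins passed limma's test in either direction, and 2, 2 and 0 of them reached a raw p under 0.05. FBL, the methyltransferase that box C/D snoRNAs guide, had a log2 fold change of -0.23 (adjusted p = 0.255).

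Other snoRNAs were read on the same arrays. Of 6 probe sets naming 1 snoRNA of the imprinted DLK1-MEG3 domain, 5 rose (83.3%, against 6.02% of all probe sets). Their median log2 fold change was 2.42. Of 81 probe sets naming SNORD genes outside both domains, 0 rose and 5 fell (6.17%, near the 6.36% of all probe sets). The median of these was -0.11, against -0.09 for the whole table. Raw limma p-values under 0.05 were found for 1 higher (1.23%) and 16 lower (19.8%) of these, against 11.3% and 17.7% of all probe sets. The difference between these groups and the 15q11 snoRNAs was not tested.

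Values of the whole series bear on these readings in a few places. Pearson's correlation over probe sets, which are not independent replicates, was 0.995 between vehicle arrays, 0.992 between treated arrays and 0.966 to 0.971 between groups. Of 8 colorectal epithelium markers, KRT8, KRT18, KRT19 and EPCAM had vehicle means of 11.81 to 13.01, CDH1 of 10.23 and CDX2 of 7.92. VIL1 and CDH17, markers of differentiated intestinal cells, had vehicle means of 4.31 and 3.77. EPCAM fell by 0.72 on the log2 scale. Of 12 neuron markers, 3 rose (STMN2, RBFOX3 and NEFL) and 1 fell (SNAP25), and their summed linear signal went from 2637 and 2744 in vehicle to 2922 and 3057 in treated cells. Of 14 markers of leukocytes, endothelium, mesenchymal cells and astrocytes, 5 rose (CD3D, CD14, CD68, PECAM1 and ACTA2, 35.7%, against 6.02%). The sum of the 14 went from 1270 and 1448 to 2614 and 2817. Such sums add unlike probe sets and depend most on bright ones. CD68 alone went from 8.54 and 8.85 to 10.04 and 10.40 on the log2 scale. Among the neuron markers STMN2 rose 21.6-fold, from 5.07 and 4.69 to 9.26 and 9.37. SYT1, the brightest of them, went from 11.10 and 11.13 to 10.86 and 10.89 (log2 fold change -0.24, limma adjusted p = 0.223). RMA gives no value of 0, and the part of these markers in the domain's readings was not tested. In bulk RNA, a change in the share of cells that express a gene and a change per cell cannot be told apart.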

How the data were processed

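Per the labels' protocols, total RNA was reverse transcribed to sense-strand cDNA with a whole-transcript kit, fragmented and biotin-labelled. The deposited values are log2 levels of each probe set, made with Affymetrix Expression Console and RMA, per the submitters' processing notes. Their versions and the array's genome build are not stated in the labels. RMA quantile normalizes arrays, which hides any global shift in RNA content, and it compresses changes of dim probe sets. The number of arrays, 2 per group, limits the precision.

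Groups came from sample titles. A table of the platform's annotation named 21236 probe sets and left 12061 unnamed. limma 3.58.1 in R 4.3.3 (lmFit, eBayes, no covariate) was fitted to all 33297 probe sets, with two-sided p-values and Benjamini-Hochberg adjustment over all of them. It was also run on simulated arrays with independent noise drawn from its own fitted variances. That run cannot show how well it does on these arrays. Intervals are 95% moderated intervals. A listed gene with several probe sets was represented by the one with the highest mean. Promoter windows are RefSeq's.

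The members, gene lists and tests were chosen with earlier results of these data known. By rule, the text named every member outside the tandem arrays, called copies, and the highest and lowest copy by mean level. For each list, up to 4 genes were taken by smallest p-value, with exceptions. FBL was named without ZNHIT3 and RUVBL1, which had smaller p-values. All 8 colorectal epithelium markers, SYT1 and ACTA2 were also named. Other features, such as SNORD116-6, SNORD116-26, the split of copies into 1 to 13, 14 to 22 and 23 to 29, the joint probe sets and the difference from the host, were singled out after their values were seen. Alternatives covered the features fitted, scaling, filtering, variance model, threshold, replicate block and left-out arrays.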

Additional observations from a re-analysis of the deposited data

How the results depend on the processing

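The direction of each SNORD116 rise, of NDN and of MKRN3 was kept under each alternative in which the probe set was fitted, of which only the scalings and left-out arrays can move a fold change. The count of member rises was 5 as reported, and 6 over named probe sets and with housekeeping centring. It was 4 over 1 probe set per gene (48 members fitted) and after repeated quantile normalization. With equal readouts counted once, an alternative chosen after seeing the data, it was also 4. It ran from 0 to 3 with 1 array left out, where a lone array was assumed to vary like the other group, was 2 without the dimmest 33.3% of probe sets (5 members fitted) and 0 at an adjusted p under 0.01. Of the 5 rises as reported, only SNORD116-15 was fitted without the dimmest probe sets, and the other rise there was of NDN. In that fit 5176 of 22198 probe sets were called in either direction. At an adjusted p under 0.01, 1199 of all 33297 probe sets were called. The count of falls was 0, and 1 (MKRN3) over named probe sets, over 1 probe set per gene, with median centring and after repeated quantile normalization. SNORD116-15 missed the threshold after repeated quantile normalization (adjusted p = 0.0520), and NDN passed with housekeeping centring (adjusted p = 0.0434) and without the dimmest probe sets (adjusted p = 0.0326).

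Replicate numbers are shared between groups, but 2 pairs cannot show that they pair samples. Deviations of same-numbered arrays correlated at 0.176 over probe sets, and the fit with the replicate block gave 5 rises and 0 falls.

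Log2 fold changes near 0 changed sign, none of them called. SNORD116-2 went from 0.06 to -0.06 with median centring, -0.04 after repeated quantile normalization, -0.12 without vehicle replicate 1 and -0.01 without treated replicate 2; leaving out 1 array gave it a range of -0.12 to 0.24. After repeated quantile normalization SNORD116-16 became 0.04, SNORD115-7 with SNRPN 0.04, SNORD115-25 0.11 and SNORD115-10 0.05. Without vehicle replicate 2 the last 3 became 0.01, 0.05 and 0.07. SNORD116-16 became 0.02 without vehicle replicate 1, and SNORD115-25 became 0.01 with housekeeping centring and 0.06 without treated replicate 1. With 1 array left out, the lowest values were -0.11 for SNORD115-25, -0.14 for SNORD115-10 and -0.09 for SNORD116-16. The causes were not tested.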
